A study of Mus musculus with 12 samples.

Results

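Caveolins and cavins, the proteins that build caveolae, were followed by their transcripts in the cortex of embryonic mice. The family has 6 member genes, Cav1, Cav2, Cav3, Cavin1 (older symbol Ptrf), Cavin2 (Sdpr) and Cavin3 (Prkcdbp), of 18194 genes named on the array. Members were found as all probe sets annotated to 1 of these genes alone, which gave 11 probe sets. Cav1, Cav2, Cavin1 and Cavin3 entered the tests, and Cav3 and Cavin2 did not. The family was chosen by measured values of these arrays. Which ones was not recorded, so the difference of Cav1 and Cav2 between caudal and rostral WT cortex, the only one past the threshold between 2 groups, is taken as the choosing value and given as a description.

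Each array held RNA of a caudal or a rostral piece of cortex at embryonic day 14, from an AP2gamma knockout (KO) or a wild-type (WT) animal. Tfap2c encodes AP2gamma, a DNA-binding factor that the series title links to the number of basal progenitors, dividing cells that produce cortical neurons. The 12 arrays, 3 per group, each carry their own animal number. Caudal cortex was taken from KO animals 1, 2 and 13 and WT animals 4, 6 and 14. Rostral cortex was taken from KO animals 7, 8 and 15 and WT animals 10, 12 and 16. Strain, the way the gene was deleted, and whether caudal and rostral pieces came from the same embryos are not given in the sources used here.

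Caveolae are small flask-shaped pits of the plasma membrane that bend with membrane tension and take part in endocytosis, lipid handling and signalling. Caveolins sit in the membrane as the inner scaffold, and cavins form a coat on the cytoplasmic side, without which caveolae do not form or last. In the brain they are best known from blood vessel walls, where the endothelium of the blood-brain barrier keeps few of them. Caveolin-1 has also been described in neurons and glia.

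Cav1 and Cav2 are neighbours on mouse chromosome 6 in the same orientation, and the reference annotation (GRCm38.p6) holds no other protein-coding gene in the span from Cav2 to Cav1. Their promoter windows start 25150 base pairs apart. The promoters of both genes are shown because their levels moved together, and that of Cavin1, on chromosome 11, because its level did not move with theirs. RefSeq promoters (GRCm38.p6) of 250 bases before to 50 bases after the gene start, written 5′ to 3′ on the gene's strand, were matched for 5 of the 6 members. Capitals mark a match to GCCNNNGGC, the consensus of AP-2 factors, which reads the same on both strands.
Cav2 (chr6:17280935-17281234, plus strand): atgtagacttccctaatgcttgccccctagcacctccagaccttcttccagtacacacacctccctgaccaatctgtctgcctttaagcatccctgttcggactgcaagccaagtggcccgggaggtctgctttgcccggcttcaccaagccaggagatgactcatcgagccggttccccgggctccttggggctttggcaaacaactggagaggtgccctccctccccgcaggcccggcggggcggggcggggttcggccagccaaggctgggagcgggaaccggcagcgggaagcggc
Cav1 (chr6:17306085-17306384, plus strand): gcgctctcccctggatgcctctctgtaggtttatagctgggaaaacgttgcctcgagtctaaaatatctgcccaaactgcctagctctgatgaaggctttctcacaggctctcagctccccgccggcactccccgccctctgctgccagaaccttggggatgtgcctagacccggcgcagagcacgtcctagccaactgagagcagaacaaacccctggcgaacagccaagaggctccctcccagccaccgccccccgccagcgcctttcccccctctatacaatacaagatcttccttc
Cavin1 (chr11:100970566-100970865, minus strand): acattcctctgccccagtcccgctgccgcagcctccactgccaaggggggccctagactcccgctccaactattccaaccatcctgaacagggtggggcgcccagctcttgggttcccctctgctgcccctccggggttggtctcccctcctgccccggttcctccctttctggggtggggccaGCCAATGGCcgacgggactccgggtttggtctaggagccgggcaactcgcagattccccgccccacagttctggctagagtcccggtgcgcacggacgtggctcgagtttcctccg
The Cavin1 window holds 1 match, GCCAATGGC, which begins at -66 from the gene start. The letters were not found in the windows of Cav1, Cav2, Cav3 or Cavin2. Of all 32851 promoters, 16.6% hold a match, and of the 12366 promoters of tested genes 25.0% do. The GC box GGGCGG, searched on both strands, occurs 2 times each in the Cav2 and in the printed Cav1 window, and 1 time in that of Cavin1. It is found in 62.5% of promoters of tested genes. A TATAAA match on the reverse strand is present in the printed Cav1 window and in 7.1% of promoters of tested genes. GC content is 64.3% for Cav2, 59.3% for Cav1 and 67.0% for Cavin1.

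The arrays were alike in scale, with medians of 5.21 or 5.22 on the log2 scale of the deposited values. Tfap2c averaged 7.67 ± 0.21 in caudal KO and 8.89 ± 0.28 in caudal WT arrays, and 8.28 ± 0.30 in rostral KO and 8.87 ± 0.28 in rostral WT arrays (SD, n = 3 each). It was lower in KO cortex averaged over both regions, by 0.91 ± 0.14 (SE, limma adjusted p = 0.038), and its probe sets were not placed relative to the deleted part. Of 10 genes that mark cortical neural cells, 9 were tested, with means per array of 10.69 to 11.01, so the markers of the labelled tissue were present. Xist was high on 2 arrays only, caudal WT 6 and rostral WT 12. Eif2s3y, a gene of the Y chromosome, was 0.20 and 2.60 on these and 8.49 to 9.15 on the other arrays. By both genes these arrays read as female and the others as male. Each KO against WT comparison is thus unequal in sex, and the effect of sex was not tested. The array of rostral KO animal 15 stood apart in meningeal and mesenchymal genes, with a mean of 7.79 over 7 tested genes against 5.49 to 6.31 on the other arrays. Caudal WT 6 stood apart in choroid plexus genes, with a mean of 7.52 over 2 tested genes against 4.00 to 5.77 on the other arrays.

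Cav1, the main caveolin outside muscle, had log2 values of 8.85, 7.89 and 6.60 in caudal KO arrays (animals 1, 2 and 13), against 8.87, 8.92 and 8.52 in caudal WT arrays (animals 4, 6 and 14). In rostral cortex it had 7.39, 6.78 and 7.19 in KO arrays (animals 7, 8 and 15), against 6.86, 6.83 and 7.16 in WT arrays (animals 10, 12 and 16). All 3 caudal WT arrays lay above all 6 rostral arrays. The caudal KO arrays were spread over the whole range of the gene, with animal 1 at the WT level, animal 2 between the regions and animal 13 below every other array. In these bulk samples fewer cells of a type and less RNA per cell cannot be told apart, which holds for every level below.

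Cav2, which forms mixed oligomers with caveolin-1, had log2 values of 7.20, 6.64 and 6.10 in caudal KO arrays, against 6.87, 7.16 and 7.21 in caudal WT arrays. In rostral cortex it had 5.95, 5.81 and 6.35 in KO arrays, against 5.66, 5.09 and 6.06 in WT arrays. The order of the caudal KO animals was that of Cav1. Caudal WT arrays again lay above all rostral arrays, while caudal KO animal 13 fell below rostral KO animal 15. A second Cav2 probe set was dim, with 3.31 to 5.62 over the 12 arrays and only 4 arrays above the median of all deposited values (5.21). On it, caudal minus rostral was 0.30 ± 0.55 (SE) in WT and -0.22 ± 0.55 in KO cortex, so the regional difference of Cav2 rests on 1 probe set.

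**Figure D1:**
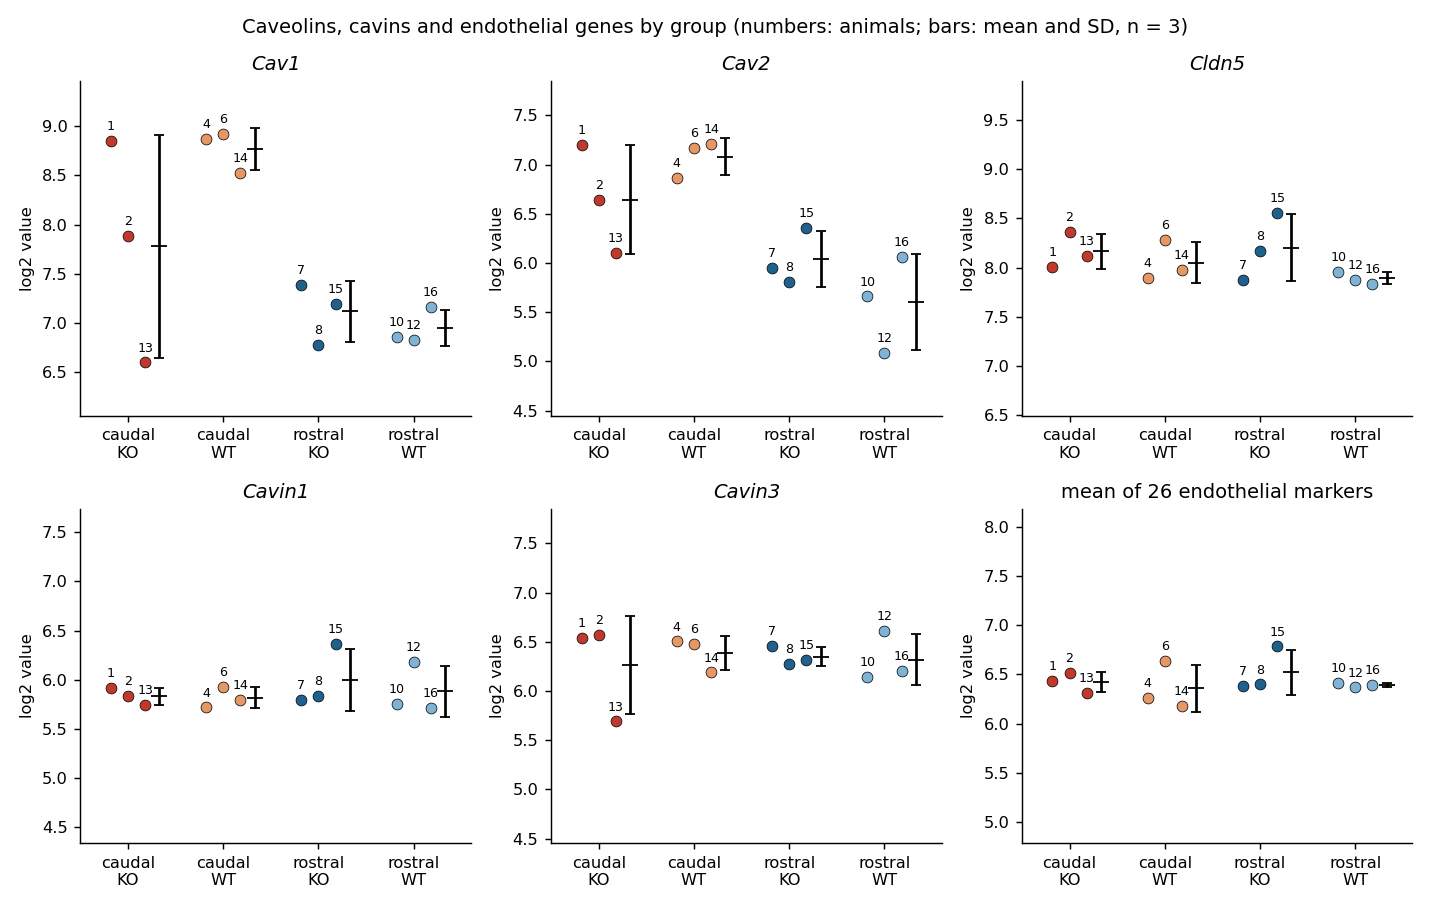
Log2 values (vertical axes, equal spans of the scale) of Cav1, Cav2, Cavin1, Cavin3, Cldn5 and the mean of 26 endothelial markers in the 4 groups (horizontal axes). Each point is an array with its animal number, and bars give the mean and SD (n = 3). Cav1 and Cav2 were higher in all caudal WT than in all rostral arrays, with caudal KO arrays spread from the caudal WT to the rostral level, while in the other 4 panels caudal and rostral arrays overlap within each genotype.

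Between regions in WT cortex, Cav1 averaged 8.77 ± 0.21 in caudal and 6.95 ± 0.18 in rostral arrays (SD, n = 3 each), a log2 difference of 1.82 ± 0.39 (SE, 3.53-fold). Cav2 averaged 7.08 ± 0.19 in caudal and 5.60 ± 0.49 in rostral WT arrays, a difference of 1.48 ± 0.29 (2.79-fold). The limma adjusted p over all 11785 tested genes was 0.047 for Cav1 and 0.033 for Cav2, printed here as descriptions because the family was proposed with such values in view. Both genes were past the threshold of 0.05 and did not overlap between the groups. Of all tested genes 0.942% were past the threshold in either direction, 0.255% were past it as higher, and 4.96% did not overlap and were higher. Both calls ended without animals 6 and 12, the arrays high in Xist (adjusted p = 0.27 for Cav1 and 0.21 for Cav2). With 1 array left out, the call on Cav1 held only without caudal KO 1 or caudal KO 13, and that on Cav2 ended without caudal KO 2, rostral KO 7, any caudal WT array, rostral WT 10 or rostral WT 12.

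The KO arrays gave the same regional comparison in other samples. Cav1 averaged 7.78 ± 1.13 in caudal KO and 7.12 ± 0.31 in rostral KO arrays, a log2 difference of 0.66 ± 0.39 (SE, limma adjusted p = 0.51, 95% interval -0.19 to 1.50). Cav2 averaged 6.64 ± 0.55 in caudal KO and 6.04 ± 0.28 in rostral KO arrays, a difference of 0.61 ± 0.29 (adjusted p = 0.41, interval -0.03 to 1.24). Neither passed, and both overlapped between the groups. For Cav1, leaving out caudal KO 13 gave 1.25 (adjusted p = 0.064), and leaving out caudal KO 1 gave 0.12. Among tested genes, 0.950% passed this comparison and 20.9% did not overlap. Averaged over genotypes, which includes the WT arrays, caudal minus rostral was 1.24 ± 0.28 for Cav1 and 1.04 ± 0.21 for Cav2, again a description. There 4.46% of tested genes were past the threshold.

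Loss of AP2gamma was compared within each region. In caudal cortex, KO minus WT was -0.99 ± 0.39 for Cav1 (SE, limma adjusted p = 1.00, unadjusted p = 0.025) and -0.44 ± 0.29 for Cav2. Both shared the caudal WT arrays with the regional difference above. The size for Cav1 depended on single animals, at -0.40 without caudal KO 13 and -1.53 without caudal KO 1, and for Cav2 it was -0.16 and -0.71. In rostral cortex KO minus WT was 0.17 ± 0.39 for Cav1 and 0.44 ± 0.29 for Cav2. The rostral WT arrays were shared with the regional difference as well. A choice by high caudal WT and low rostral WT levels tends to lower KO minus WT in caudal cortex and to raise it in rostral cortex. For Cav1 and Cav2 these differences and their p are therefore descriptions. By limma's adjusted p, 0 of the 4 tested members passed in either region, as for all genes (0% of 11785 in each). Tfap2c itself did not pass, at -1.22 ± 0.19 (SE) in caudal (limma adjusted p = 0.084) and -0.59 ± 0.19 in rostral cortex (0.63). That no member passed is thus weak evidence of no change. At an unadjusted p under 0.05, Cav1 was the only member in caudal cortex, beside 4.06% of all tested genes, and in rostral cortex no member was, beside 6.69%. No member separated KO from WT arrays, which 7.52% of tested genes did in caudal and 13.0% in rostral cortex.

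The KO effect in caudal minus that in rostral cortex was -1.16 ± 0.55 for Cav1 and -0.87 ± 0.42 for Cav2 (SE). It equals the regional difference in KO minus that in WT, so it holds the choosing value with its sign turned and is a description. No tested gene passed limma's adjusted p in this comparison (0%), and 3.04% of tested genes had an unadjusted p under 0.05. Averaged over regions, KO minus WT was -0.41 ± 0.28 for Cav1, while 0.0339% of tested genes passed there and no member did.

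Cav3, the caveolin of striated muscle, lay between 1.37 and 2.67 on the 12 arrays, at or below the median of all values on each. Of 10 striated muscle markers only Ckm passed the filter. Cavin4, the muscle cavin, did not pass it either.

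Cavin1, the coat protein that caveolae need in all tissues, had log2 values of 5.92, 5.83 and 5.74 in caudal KO arrays, against 5.72, 5.93 and 5.80 in caudal WT arrays. In rostral cortex it had 5.80, 5.83 and 6.36 in KO arrays, against 5.76, 6.18 and 5.71 in WT arrays. Rostral KO 15 and rostral WT 12 stood above the other arrays, which lay within a narrow band, and all groups overlapped. Caudal minus rostral was -0.17 ± 0.22 in KO (SE, 95% interval -0.64 to 0.31) and -0.07 ± 0.22 in WT cortex (-0.55 to 0.41). KO minus WT was 0.02 ± 0.22 in caudal cortex (-0.46 to 0.49) and 0.11 ± 0.22 in rostral cortex (-0.36 to 0.59). The other Cavin1 probe sets stayed under the median of all values on every array, at 0.90 to 4.72 and -0.07 to 3.28.

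Cavin2, which helps to shape the caveolar membrane, was not tested. Its 3 probe sets ran from -0.19 to 5.07, and the highest value was that of rostral KO 15. That lies just under the filter at 5.21, and no change of Cavin2 in either direction could be read at these signals.

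Cavin3, a cavin that binds protein kinase C delta, had log2 values of 6.54, 6.57 and 5.69 in caudal KO arrays, against 6.50, 6.47 and 6.19 in caudal WT arrays. In rostral cortex it had 6.46, 6.27 and 6.32 in KO arrays, against 6.14, 6.61 and 6.21 in WT arrays. Caudal KO 13, the lowest array for Cav1, was the lowest here too, and the groups otherwise covered the same range. Caudal minus rostral was -0.08 ± 0.24 in KO (SE) and 0.07 ± 0.24 in WT cortex (95% interval -0.44 to 0.58). KO minus WT was -0.12 ± 0.24 in caudal cortex, where it was 0.17 without caudal KO 13, and 0.03 ± 0.24 in rostral cortex.

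**Figure D2:**
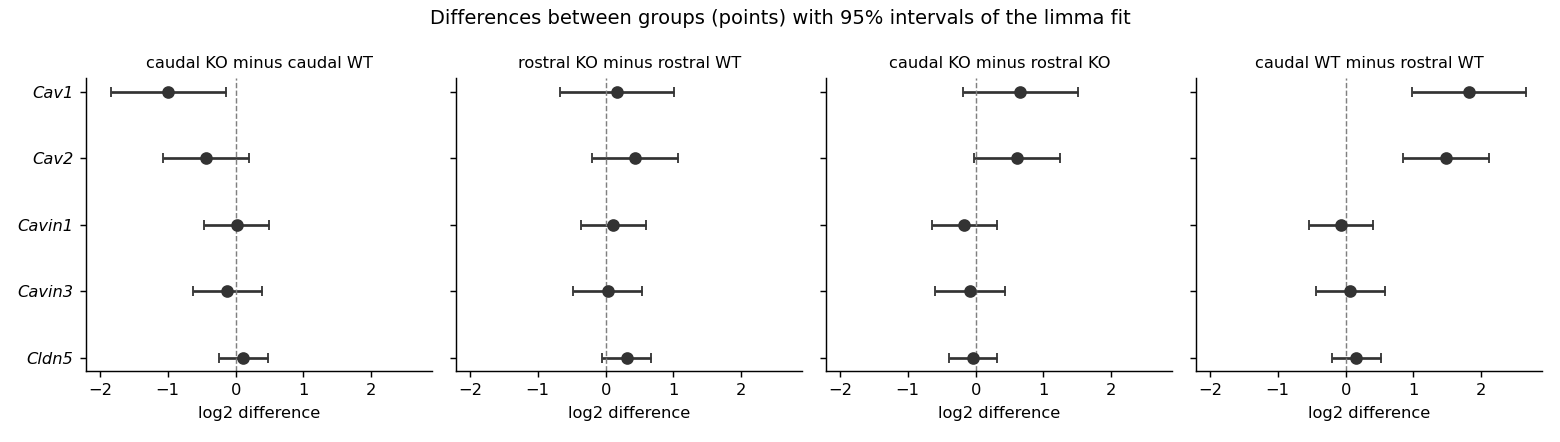
Log2 differences between groups (horizontal axes) of the 4 tested members and Cldn5 (rows), with 95% intervals of the limma fit as bars, for 4 comparisons. In WT cortex the intervals run from 0.97 to 2.66 for Cav1 and 0.85 to 2.11 for Cav2, the values taken as having chosen the family, and those of Cavin1, Cavin3 and Cldn5 include 0.

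**Figure D3:**
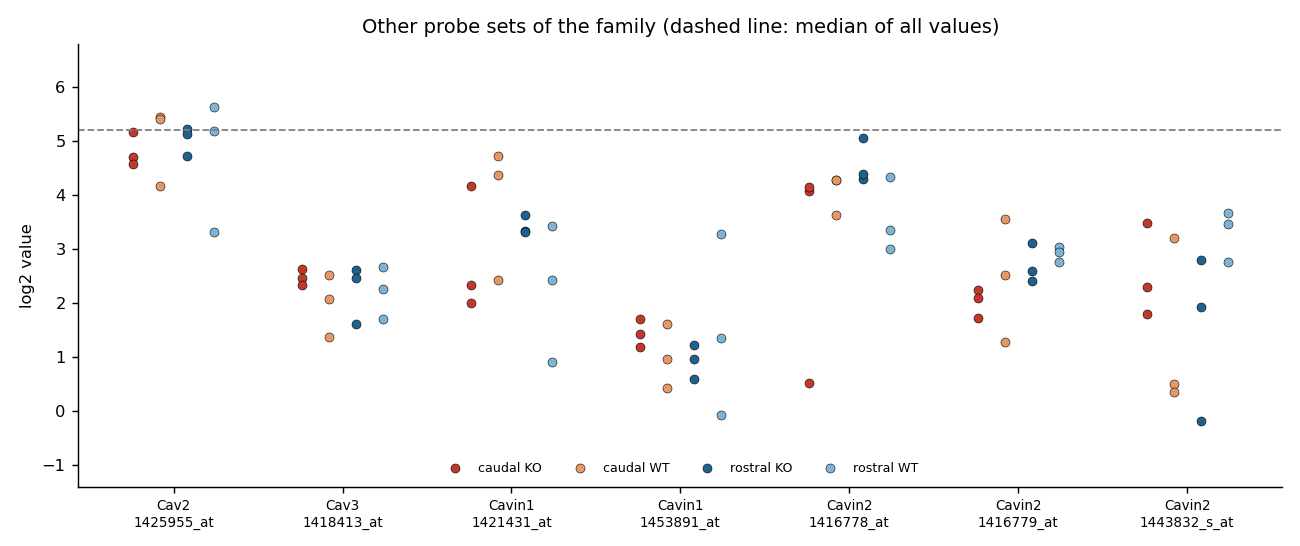
Log2 values (vertical axis) of the 7 probe sets of the family not used to represent a gene, by probe set (horizontal axis) and group (colour), with 1 point per array. The dashed line is the median of all deposited values (5.21), and 6 of the 7 probe sets lie under it on every array.

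Endothelial cells carry caveolae, so the caveolins and cavins were set beside endothelial genes. Cldn5, a tight junction protein of endothelium, had 8.01, 8.36 and 8.12 in caudal KO arrays, against 7.89, 8.28 and 7.98 in caudal WT arrays. In rostral cortex it had 7.88, 8.17 and 8.56 in KO arrays, against 7.96, 7.88 and 7.84 in WT arrays. The 2 regions overlapped in both genotypes. Caudal minus rostral was -0.04 ± 0.17 in KO (SE) and 0.16 ± 0.17 in WT cortex (95% interval -0.20 to 0.52).

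Of 32 endothelial markers 26 were tested, and none passed in any of the 7 comparisons. In WT cortex 9 were higher and 17 lower in caudal than in rostral arrays, with a median difference of -0.07, beside -0.02 over all tested genes. Of all tested genes 44.5% were higher there. S1pr1, a receptor for a lipid signal that is not confined to endothelium, had the smallest p of the list, with 0.63 ± 0.19 (SE, limma adjusted p = 0.17). In caudal cortex 16 were higher and 10 lower in KO than in WT, with a median of 0.08, beside 49.5% of all tested genes higher. In rostral cortex it was 17 higher and 9 lower, with a median of 0.20, beside 45.0% of all tested genes higher. Fli1, an endothelial and blood transcription factor, led there at 1.21 ± 0.36 (limma adjusted p = 0.63). In caudal against rostral KO cortex 6 were higher and 20 lower, with a median of -0.10, beside 47.2% of all tested genes higher. Of 14 pericyte and smooth muscle markers 9 were tested, of which 2 were higher and 7 lower in caudal than in rostral WT cortex, and none passed. With the endothelial mean as a covariate, caudal minus rostral in WT was 1.85 for Cav1 and 1.51 for Cav2, descriptions of the choosing value. That mean was 6.36 ± 0.24 in caudal WT and 6.39 ± 0.02 in rostral WT arrays (SD, n = 3 each). The covariate could therefore move these differences little, whatever their source, which was not tested.

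Whether caveolins followed cavins was asked across the 12 arrays. Cav1 and Cav2 followed each other (Pearson r = 0.89, Spearman rho = 0.78), which is given as a description. They did so within the caudal arrays (r = 0.93, n = 6), within the rostral arrays (r = 0.65, n = 6) and in deviations from group means (r = 0.73). By r with Cav1, Cav2 came after 16 of the 11784 other genes, Cavin3 after 1284 and Cavin1 after 7523. Those ranks carry the regional difference. By deviations from group means the order was Cavin3 after 336 genes (r = 0.76), Cav2 after 446 (0.73) and Cavin1 after 5742 (0.17). The SD of Cav1 was 1.13 in caudal KO arrays, against 0.18 to 0.31 in the other groups. Its r by deviations therefore rest mostly on the caudal KO arrays.

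No relation of Cav1 with Cavin1 was detectable (r = -0.13, rho = 0.10, permutation p = 0.71, adjusted p = 1.00 over the 22 pairs computed). Without the 2 arrays farthest from the median of Cav1, r was -0.06. Among caudal arrays it was 0.46, and among rostral arrays -0.01. Nor was one of Cav2 with Cavin1 (r = -0.17, rho = 0.06, permutation p = 0.61, adjusted p = 1.00), where r was 0.22 without the 2 farthest arrays. For this pair r was 0.59 among caudal and 0.01 among rostral arrays. Cav1 with Cavin3 gave r = 0.49 and rho = 0.44 (permutation p = 0.10, adjusted p = 0.37), with 0.41 without the 2 farthest arrays. That relation was 0.81 in the caudal arrays, where animal 13 was lowest for both genes, and 0.08 in the rostral arrays. Within groups, by deviations from group means, it was 0.76, as large as the 0.73 of Cav1 with Cav2. Both values rest mostly on the caudal KO arrays, where Cav1 was most spread. Cav2 with Cavin3 gave r = 0.15 and rho = 0.10 (permutation p = 0.66, adjusted p = 1.00), and 0.21 by deviations. It was 0.67 among caudal arrays, -0.52 among rostral arrays and 0.58 without the 2 farthest.

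No relation of a caveolin with Cldn5 was detectable across arrays. Cav1 with Cldn5 gave r = 0.01 and rho = 0.10 (permutation p = 0.97, adjusted p = 1.00), at -0.27 in caudal and 0.05 in rostral arrays and -0.01 without the 2 farthest. Cav2 with Cldn5 gave r = 0.26 and rho = 0.36 (permutation p = 0.42, adjusted p = 0.86), at -0.23 in caudal and 0.56 in rostral arrays and 0.22 without the 2 farthest. Over the 26 endothelial genes, 13 had a positive r with Cav1 and the median r was -0.05, beside 51.9% positive and a median of 0.02 over all genes. With Cav2 the count was 15 and the median 0.04, beside 46.4% and -0.04. With the mean of the 26 genes, r was -0.04 for Cav1 and 0.05 for Cav2. By deviations from group means, 16 were positive with Cav1 (median 0.22, beside 63.5% and 0.15 over all genes) and 21 with Cav2 (median 0.27, beside 54.1% and 0.04). The largest of these, named after their values were seen, were Cdh5, the adhesion protein of endothelial junctions, with Cav1 (0.86) and Esam, another junction protein, with Cav2 (0.80). The deviation values of Cav1 rest mostly on the caudal KO arrays, where it was most spread. With 12 arrays these tests leave room for moderate relations.

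The relation of Cavin1 with the endothelial genes did not pass after adjustment, and its size and call depended on single arrays. With the mean of the 26 endothelial genes Cavin1 gave r = 0.67 and rho = 0.56 (permutation p = 0.023, adjusted p = 0.17). It was 0.76 among caudal and 0.73 among rostral arrays. In animals 1 to 12 it was 0.19, in WT arrays 0.26, and in KO arrays, which include rostral KO 15, 0.95. Without the 2 arrays farthest from the median of Cavin1 it was 0.63, without rostral KO 15 alone 0.28, and without rostral WT 12 alone 0.82, where it passed (permutation test, adjusted p = 0.025). Among the 26 genes 23 had a positive r with Cavin1 and 8 were above 0.5, beside 51.5% and 4.41% of all genes. With Cldn5, Cavin1 gave r = 0.54 and rho = 0.57 (permutation p = 0.062, adjusted p = 0.34), at 0.46 in caudal and 0.68 in rostral arrays. In animals 1 to 12 this r was -0.05, in WT arrays 0.17 and in KO arrays 0.72. Without the 2 farthest arrays it was 0.59, without rostral KO 15 alone 0.06, and without rostral WT 12 alone 0.79, where it passed (permutation test, adjusted p = 0.031). The mean of 7 meningeal genes, which was highest on the same array, gave r = 0.77 and rho = 0.38 with Cavin1 (permutation p = 0.014, adjusted p = 0.15), 0.55 without the 2 farthest arrays and 0.26 without rostral KO 15. The part of meningeal tissue in the Cavin1 level of that array was not tested. With the meningeal mean, Cav1 gave r = 0.03 and rho = 0.48, and Cav2 gave r = 0.14 and rho = 0.22, and neither passed. Without rostral KO 15 these r were 0.53 for Cav1 and 0.39 for Cav2. In animals 1 to 12 they were 0.62 and 0.54, beside 0.23 for Cavin1. With the mean of the tested pericyte and smooth muscle genes, Cavin1 gave r = 0.53 but rho = 0.02. That r was -0.60 without the 2 farthest arrays and -0.01 without rostral KO 15. Cav1 and Cav2 gave -0.47 and -0.36 with this mean, at -0.88 and -0.85 in WT and -0.16 and 0.07 in KO arrays. Over the 12 arrays none of these passed. No difference between the r of Cavin1 and those of the caveolins was tested.

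**Figure D4:**
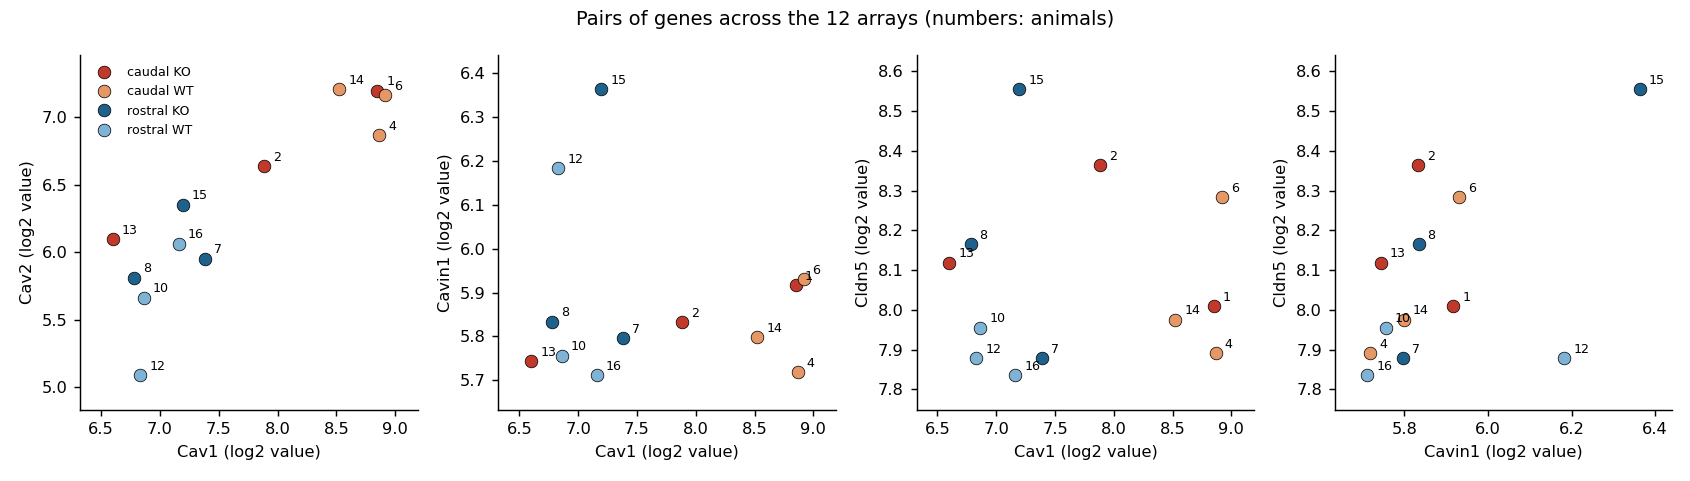
Log2 values of pairs of genes across the 12 arrays, coloured by group and numbered by animal, for Cav1 with Cav2, Cav1 with Cavin1, Cav1 with Cldn5 and Cavin1 with Cldn5. The first pair runs along a diagonal (r = 0.89), the next 2 do not (r = -0.13 and 0.01), and in the last the array of rostral KO animal 15 stands alone at the upper right.

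The genes most like Cav1 over the 12 arrays were Nhlh2 (r = 0.95), a neuronal bHLH transcription factor, Cald1 (0.94), an actin-binding protein, Dpysl4 (0.94), a cytoskeletal phosphoprotein of neurons, Slc26a7 (0.92), an anion transporter, and Ltbp1 (0.92), which binds latent TGF-beta. None of the 26 endothelial genes was among them. A list this short, taken from 11781 genes, would rarely hold any of the 26, so their absence is not informative. Those most like Cav2 were Amph (0.97), a synaptic protein of endocytosis, Pde2a (0.93), a cyclic nucleotide phosphodiesterase, Gabra2 (0.93), a GABA-A receptor subunit, Ly6h (0.92) and Calb1 (0.91), a calcium-binding protein of neurons. For Cavin1 they were Micu2 (0.97), a regulator of the mitochondrial calcium uniporter, Aldh9a1 (0.90), Ets1 (0.87), a transcription factor of endothelium and blood, Ghitm (0.82) and Lzts2 (0.81). For Cavin3 they were 2310011J03Rik (0.92), Timm10 (0.89), an import chaperone of mitochondria, St6galnac3 (0.88), Acot6 (0.88) and Foxred1 (0.88). The genes in these rankings share libraries with the members, and the values are descriptions.

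Within groups, by deviations from group means, other genes ranked highest. They were Selenom, Impdh1, Prokr2, Aqp11 and Tmem86a for Cav1 (r = 0.94 to 0.97), Kdelr2, Itga9, Nfkbia, Tcerg1l and Arl3 for Cav2 (0.91 to 0.96), Micu2, Hat1, Aldh9a1, Fmc1 and Ipo11 for Cavin1 (0.91 to 0.97), and Foxred1, Chrac1, Spidr, 2310011J03Rik and Prcd for Cavin3 (0.97 to 0.98). Micu2 and Aldh9a1 ranked among the 5 nearest to Cavin1 by both measures and Foxred1 and 2310011J03Rik among those of Cavin3, while no gene did so for Cav1 or Cav2. For Cav1 the ranking by deviations rests mostly on the caudal KO arrays, where it was most spread. Deviations take out the regional difference of Cav1 and Cav2, whereas Cavin1 and Cavin3 differed little between groups. Both measures were thus bound to lie closer together for the cavins, and this contrast is no result about the genes.

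**Figure D5:**
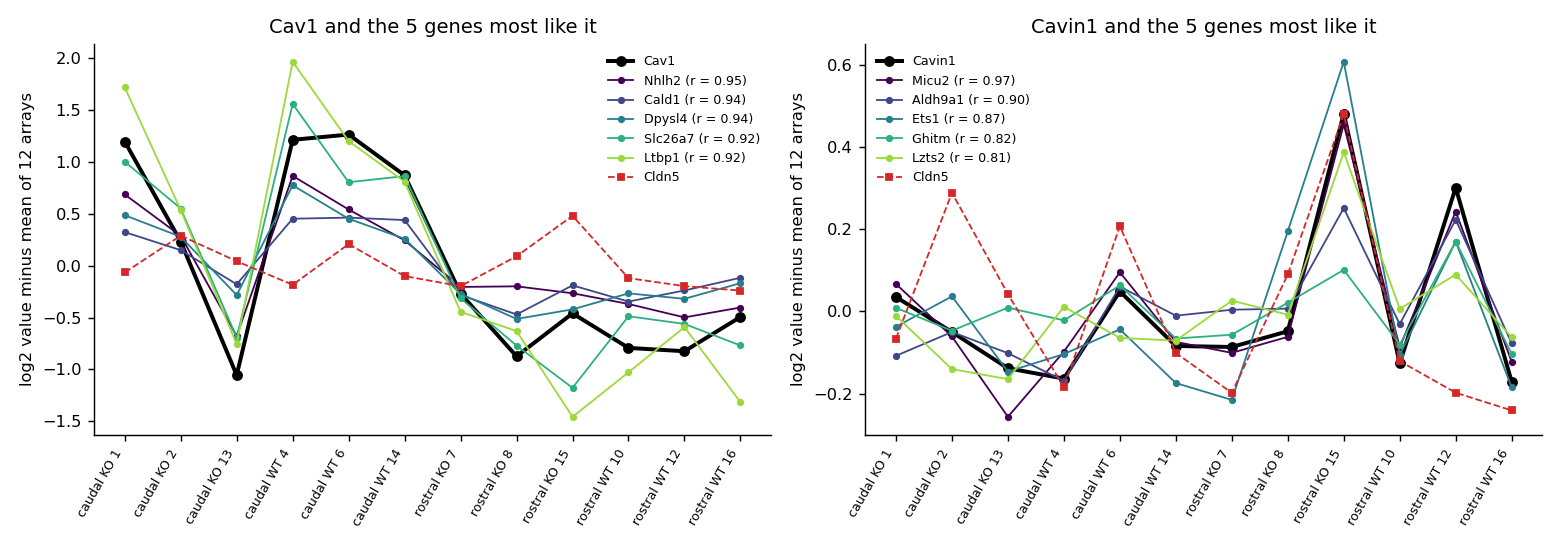
Log2 values minus the mean of the 12 arrays (vertical axes) on each array (horizontal axes) for Cav1 and for Cavin1, each with the 5 genes of highest r and with Cldn5 (dashed). The 5 genes near Cav1 are high on caudal arrays other than animal 13. Of those near Cavin1, Micu2, Aldh9a1, Ets1 and Lzts2 peak on rostral KO 15 and Ghitm on rostral WT 12.

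Of 24 other genes of caveola structure or function 18 were tested, and none passed in any of the 7 comparisons. In caudal cortex 12 were higher and 6 lower in KO than in WT, with a median of 0.03, and the rostral counts were the same with a median of 0.05. Of all tested genes 49.5% were higher in KO in caudal and 45.0% in rostral cortex. Pacsin3, a membrane-bending protein of muscle caveolae, was at 0.47 ± 0.17 for caudal KO minus WT (SE, limma adjusted p = 1.00). In WT cortex 6 were higher and 12 lower in caudal than in rostral arrays, with a median of -0.15, beside 44.5% of all tested genes higher. Flot1, a membrane scaffold protein related in role to caveolins, was at -0.21 ± 0.09 (adjusted p = 0.46), and the kinase Src, which phosphorylates caveolin-1, at -0.33 ± 0.17 (0.54). Pacsin1, the neuronal member of its family, was at -0.34 ± 0.20 (0.64). In caudal against rostral KO cortex 7 were higher and 11 lower, with a median of -0.08, beside 47.2% of all tested genes higher.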

How the data were processed

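RNA of 12 pieces of embryonic cortex was hybridised to 1-colour arrays after a single round of amplification from 400 ng of total RNA, labelled with biotin, per the labels. The authors deposited log2 values, a unit inferred from their range, for 45101 probe sets in 1 table, and the background correction, normalization and summarization are not given in the sources used here. Values were used as deposited. The platform annotation named 1 gene for 34958 probe sets, several for 932 and none for 9211.

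Probe sets above the table median (5.21) on 3 or more arrays were kept, and the brightest of them stood for its gene (11785 genes). Levels are not compared between genes. All arrays entered 1 fit in limma 3.58.1 (R 4.3.3) with 1 mean per group, and variances were moderated with a trend on intensity (degrees of freedom 8 residual, 5.37 prior). Two-sided p-values were adjusted over these genes (Benjamini-Hochberg, threshold 0.05). The fit was tested on simulated data. Correlations across arrays used two-sided permutation tests with 100000 resamples (numpy 2.4.6). With 3 arrays per group, precision is limited by their number. The labels call the samples biological replicates with separate animal numbers, and p-values measure the spread between them. If caudal and rostral pieces shared embryos, arrays would not be independent.

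The members and lists were chosen with earlier results of these data known. Named genes are the members, the 5 genes nearest to each by r and by deviations from group means, Tfap2c, Cldn5, Xist and Eif2s3y. Of the lists, some genes of smallest p or past the threshold are named, and others were singled out after their values were seen. Among cortical neural genes, Eomes passed for KO minus WT averaged over regions (-0.56 ± 0.08, SE, limma adjusted p = 0.038). Pax6 passed as lower in caudal than in rostral cortex in WT, in KO and averaged, and Tbr1 only averaged. Alternatives were other normalizations, filters, probe set rules, moderation, blocks, covariates, subsets and each array left out in turn. Fits without animals 13 and 15, and correlations without rostral KO 15 or within a genotype, were added after seeing the data. The meningeal (7 tested of 18), microglial (7 of 11), red blood cell (5 of 10), choroid plexus (2 of 8) and striated muscle (1 of 10) lists held no gene past the threshold in any comparison.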

Additional observations from a re-analysis of the deposited data

How the results depend on the processing

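On the probe sets standing for them or the mean of tested ones, Cav1 and Cav2 were higher in caudal cortex under every alternative. This held in WT, in KO and averaged, but the calls were less steady. On the dim second Cav2 probe set alone, caudal minus rostral was -0.22 ± 0.55 (SE) in KO and 0.04 ± 0.39 averaged. In WT the difference of Cav1 ran from 1.68 to 2.05 and was past the threshold in 11 of 30 alternatives, and that of Cav2 from 0.89 to 1.71 and in 17 of 29. Calls on Cav1 were lost at 1.82 with values raised to the table median, no filter, the stricter filter, the mean of tested probe sets, every tested probe set, no intensity trend or robust moderation, at 1.79 with the meningeal mean as a covariate, and at 1.68 without animals 6 and 12. Calls on Cav2 were lost at 1.48 with no filter, every tested probe set or no intensity trend, at 0.89 with the mean of tested probe sets, and at 1.18 without animals 6 and 12. Averaged over genotypes, calls on Cav1 were lost at 1.24 (no intensity trend) and 1.17 (without animals 6 and 12), and on Cav2 at 0.54 (mean of tested probe sets) and 0.89 (without animals 6 and 12). With each array left out, these ran from 1.74 to 1.94 (Cav1, WT), 1.22 to 1.71 (Cav2, WT) and 0.97 to 1.53 (Cav1, averaged, lost without caudal KO 2, rostral KO 8, rostral WT 10 or rostral WT 12).
No KO effect on a member passed under any alternative. For Cavin1, caudal KO minus WT was -0.034 with the endothelial covariate, rostral KO minus WT was -0.15 (animals 1 to 12), -0.041 (meningeal covariate) and -0.069 (without animals 13 and 15), caudal minus rostral KO was 0.060 (both subsets) and 0.0028 (meningeal covariate), and caudal minus rostral WT was 0.025 without animals 6 and 12. For Cavin3, caudal KO minus WT was 0.039 (array weights), 0.066 (animals 1 to 12) and 0.17 (without animals 13 and 15), rostral KO minus WT was -0.0094 (animals 1 to 12) and -0.030 (endothelial covariate), and caudal minus rostral KO was 0.11 (array weights) and 0.19 (both subsets). With each array left out, the 4 group differences in that order ran for Cavin1 from -0.033 to 0.073, -0.069 to 0.26, -0.27 to 0.016 and -0.15 to 0.082, and for Cavin3 from -0.27 to 0.17, -0.059 to 0.18, -0.23 to 0.20 and, in WT, -0.020 to 0.22. In deviations from group means, r was 0.17 for Cav1 with Cavin1, 0.074 for Cav2 with Cavin1, -0.11 for Cav1 with Cldn5, and 0.76 for Cav1 with Cavin3. With each array left out, Cavin1 with Cldn5 ran from 0.061 to 0.79 and with the endothelial mean from 0.28 to 0.82, and both were past the threshold without rostral WT 12.
Counts of genes past the threshold moved as follows. Caudal KO against WT (0) gave 3 at a threshold of 0.1 and 4 with animals 13 to 16 as a block. Rostral KO against WT (0) gave 4 with raised values and 2 with array weights. KO against WT averaged (4) gave 1 and 12 at 0.01 and 0.1, 2 with raised values, 2 without the trend, 10 with array weights, 20 with the block, 1 with presumed embryo pairs as a random block, 1 in animals 1 to 12, 1 without animals 6 and 12, 1 with the endothelial covariate and 2 without animals 13 and 15. The difference of KO effects (0) gave 1 with the block. Caudal against rostral WT (111) gave 26 and 239 at 0.01 and 0.1, 69 without the trend, 61 with only the groups compared, 257 with the block, 320 with embryo pairs, 72 in animals 1 to 12 and 22 without animals 6 and 12. Caudal against rostral KO (112) gave 24 and 280 at 0.01 and 0.1, 56 without the trend, 637 with array weights, 72 with only the groups compared, 342 with the block, 385 with embryo pairs, 38 in animals 1 to 12, 40 with the meningeal covariate and 15 without animals 13 and 15. Averaged over genotypes (526) it gave 217 and 843 at 0.01 and 0.1, 926 with the block and 946 with embryo pairs. With each array left out, the counts ran from 0 to 1 in caudal KO, 0 to 1 in rostral KO, 1 to 4 averaged, 27 to 134 in WT, 20 to 143 in KO and 334 to 559 averaged over genotypes. The cause of these shifts was not tested. The groups share no replicate number in the labels, so pairs of arrays were only presumed from animal numbers and entered as the random block above (consensus correlation 0.26). Signal limits Cav3 and Cavin2, which lay under the table median.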

Other observations

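Caudal KO animal 13, the lowest array for Cav1, was also compared in genes of cortical area identity that were singled out after their values were seen. Crym, a thyroid hormone binding protein, had 7.77, 7.34 and 4.25 in caudal KO arrays of animals 1, 2 and 13, against 8.50, 7.39 and 8.35 in caudal WT arrays of animals 4, 6 and 14. Lhx9, a LIM homeobox factor of the dorsal and medial cortex, had 9.37, 8.80 and 6.78 in caudal KO arrays, against 9.25, 8.76 and 8.48 in caudal WT arrays. For both genes animal 13 lay below all other arrays of the series.

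Nr2f1, a nuclear receptor that is graded along the cortex, had 12.24, 11.75 and 12.04 in caudal KO arrays, against 12.07, 12.04 and 12.07 in caudal WT arrays, while rostral arrays lay between 9.07 and 10.41. Nr2f2, a related receptor, had 8.89, 8.27 and 7.29 in caudal KO arrays, against 8.15, 8.71 and 8.43 in caudal WT arrays, with 5.52 to 6.60 on rostral arrays. Etv5, an ETS factor, had 6.60, 7.40 and 7.55 in caudal KO arrays, against 6.79, 6.94 and 6.90 in caudal WT arrays, with 8.03 to 8.63 on rostral arrays. Fgfr3, an FGF receptor, had 10.21, 10.00 and 9.60 in caudal KO arrays, against 10.47, 10.03 and 10.32 in caudal WT arrays, with 7.70 to 8.73 on rostral arrays. In these 3 genes animal 13 was the caudal array nearest to the rostral ones, though still apart from them, while its Nr2f1 lay at the caudal level. What these differences within the caudal KO group come from was not tested.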
